A study of Mus musculus with 2 samples.

Results

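Ependymal cells were taken from a pair of single-cell RNA libraries of Balb/c mouse brain as the barcodes in which 5 marker genes, Foxj1, Ccdc153, Tmem212, Rarres2 and Dynlrb2, summed to at least 8 UMIs (unique molecular identifiers, 1 per captured transcript), in which at least 3 of the 5 were detected, and in which Ttr, the thyroxine carrier of choroid plexus epithelium, made up less than 5% of all UMIs. This rule found 216 cells among 21259 barcodes. The library titled positive held 36 of them among 10842 barcodes, a share of 0.332% (exact Clopper-Pearson 95% interval 0.233 to 0.459%), and the library titled control held 180 among 10417 barcodes, a share of 1.73% (1.49 to 2.0%). Values of the 5 genes chose the cells, so they are given as a description.

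Ependymal cells form the single-layered ciliated epithelium that lines the brain ventricles. Each cell carries a tuft of motile cilia on its apical surface, whose beat moves cerebrospinal fluid along the ventricular wall, and the cells exchange water, ions and metabolites between that fluid and the tissue below. A motile cilium is built on doublet microtubules that carry outer and inner dynein arms, radial spokes around a central pair, and a nexin-dynein regulatory complex between the doublets; intraflagellar transport builds it, and FOXJ1 and the RFX factors switch on its genes. The ependyma borders the fluid that also carries cytokines, so its cells are known to respond to inflammation.

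The study is a mouse model of breast cancer brain metastasis with 4T1, a triple-negative mammary carcinoma line of the same strain. The positive library and the control library are 1 sample each of brain tissue, made with Singleron GEXSCOPE microfluidic chips from polyA RNA, and no label gives an age, a sex, a time or a number of animals. The treatment field of the labels contradicts the titles, since it gives metastasis to the library titled control and none to the library titled positive, so the libraries are called here by title. At least 3 of 11 carcinoma markers (such as Krt8, Krt18, Epcam and Wfdc2) were found in 9626 barcodes, 88.8% of the titled positive library, and in 28 barcodes, 0.269% of the titled control library. Ependymal cells met the same criterion too, 32 of 36 in titled positive and 2 of 180 in titled control. In the titled positive library it therefore counts barcodes holding marker RNA, and the share of carcinoma cells was not tested. The 2 shares of ependymal cells above are shares of mixtures that differed this much in carcinoma marker RNA. With 1 library per group no test between the libraries is possible, and every interval below covers counting error only.

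The libraries held 98141261 UMIs (titled positive) and 55657687 UMIs (titled control). The ependymal cells held 198534 UMIs in the titled positive library, with 3233 to 11583 per cell (median 5211), and 1227396 UMIs in the titled control library, with 2387 to 22735 per cell (median 5886). The median number of genes per cell was 2233.5 in titled positive and 2450 in titled control cells. At an equal depth of 1000 UMIs per cell the medians were 687 genes (623 to 751) in titled positive and 699 genes (603 to 786) in titled control cells. At that depth oligodendrocyte-like barcodes had medians of 575 genes in titled positive and 615 genes in titled control barcodes. Across the libraries 149 barcode sequences occurred in both, and 2 ependymal barcodes of each library were among them.

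The label held against markers that the rule did not use. Of 10 check genes (Hydin, Rsph1, Tekt1, Cfap126, Dnah12, Enkur, Pifo, S100b, Vim and Cd24a), at least 6 were detected in 34 of 36 titled positive cells and in 172 of 180 titled control cells. Rsph1, a radial spoke head protein, had a UMI in 94.4% of titled positive and 95% of titled control ependymal cells, against 0.814% of 3684 oligodendrocyte-like barcodes of the titled control library. Ttr was held under 5% by the rule itself, so it is no check of the label. Its largest share in any cell was 0.0233% in titled positive cells and 0.19% in titled control cells. Tanycytes, the ependyma-related cells of the third ventricle floor, were checked by 12 markers, of which 8 were detected in titled positive and 9 in titled control ependymal cells. They summed to 251.8 CPM in titled positive ependymal cells against 39.6 CPM in other positive barcodes, and to 188.2 CPM in titled control ependymal cells against 99.25 CPM in other control barcodes. Scn7a and Ppp1r1b held most of these UMIs in both libraries, while Rax, Slc17a8 and Fgf10 were at 0 UMIs in both sets of cells, and whether some members are tanycytes was not tested. Just inside the rule, 1 titled positive and 4 titled control cells had 8 or 9 UMIs of the 5 genes, and just outside it 0 titled positive and 2 titled control barcodes had 6 or 7 with at least 3 of the genes. A further 34 titled positive and 20 titled control barcodes had at least 8 UMIs but fewer than 3 of the 5 genes, and their median number of check genes detected was 2 in titled positive and 1.5 in titled control, against 8 in the members of either library.

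Some members also carried many markers of another cell type. By limits of 100 UMIs per 10000 for astrocyte, oligodendrocyte, microglia, macrophage, neutrophil or carcinoma markers and 25 for the other types, 2 titled positive cells (by microglial, mural or fibroblast markers) and 24 titled control cells were mixed. In titled control the largest groups were 9 with microglial and 8 with oligodendrocyte markers. No member passed the carcinoma limit in either library. The main results that rest on few cells are given with and without these barcodes. Astrocyte-like and oligodendrocyte-like barcodes were chosen without any over these limits for other types. The ependymal sums kept their mixed barcodes, so comparisons with those 2 sets are between unlike filters.

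The 5 rule genes had these levels, in counts per 1000000 of the summed ependymal UMIs (CPM). Foxj1, the master transcription factor of motile cilia (chr11:116330704-116335399, GRCm38), stood at 851.2 CPM in titled positive and 701.5 CPM in titled control cells. Tmem212, a membrane protein of ciliated cells (chr3:27866066-27896368), stood at 1491 CPM in titled positive and 2523 CPM in titled control cells. Rarres2, which encodes the secreted chemerin precursor (chr6:48569696-48572789), stood at 1607 CPM in titled positive and 2842 CPM in titled control cells. Dynlrb2, a dynein light chain of the roadblock type (chr8:116504974-116515915), stood at 1028 CPM in titled positive and 1611 CPM in titled control cells. Ccdc153, a coiled-coil protein of the axoneme (chr9:44240676-44247306), stood at 790.8 CPM in titled positive and 2432 CPM in titled control cells, the widest gap of the 5. In all other barcodes of each library Foxj1 was at 1.92 CPM (titled positive) and 10.9 CPM (titled control).

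Per cell, the genes differed in how evenly they were found. Foxj1 ranged from 0 to 20.1 UMIs per 10000 with a median of 7.77 in titled positive cells, and from 0 to 25.1 with a median of 6.52 in titled control cells. Ccdc153 ranged from 0 to 24.1 with a median of 7.45 in titled positive cells, and from 0 to 74.8 with a median of 24.5 in titled control cells. The cells of both libraries overlapped over the whole titled positive range for both genes. Ccdc153 was detected in 83.3% of titled positive and 98.9% of titled control cells, and at 1000 UMIs per cell in 61.1% of titled positive and 86.1% of titled control cells. At that depth 0 of 298 titled positive and 0.163% of titled control oligodendrocyte-like barcodes had a UMI of it.

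Part of the cilium genes found in the ependymal cells share a promoter motif. The X-box, the binding motif of the RFX factors, was searched on both strands from 250 bases before to 50 after the RefSeq start of each gene. It occurred in 20 of 99 motile cilium genes with a promoter sequence (20.2%, of 119 listed), against 535 of 27025 genes of all kinds (1.98%). Its left arm alone, GTTGCC on either strand, occurred in 47 of the 99 (47.5%), against 14.1% of all genes. The X-box can hold this arm, so these counts overlap. The FOXJ1-type core TGTTTAC occurred in 6 of the 99 (6.06%), against 4.05% of all genes. Promoters of 3 genes with an X-box are given because they cover 3 roles in the cilium, a dynein light chain (Dynlrb2), the central pair (Hydin) and an outer arm intermediate chain (Dnaic2); capitals mark the X-box, each is written 5′ to 3′ on the strand of its gene, and the sequences are RefSeq's on GRCm38.p6. A match describes these letters and is not a shown binding site.
Dynlrb2 promoter, chr8:116504765-116505064, plus strand: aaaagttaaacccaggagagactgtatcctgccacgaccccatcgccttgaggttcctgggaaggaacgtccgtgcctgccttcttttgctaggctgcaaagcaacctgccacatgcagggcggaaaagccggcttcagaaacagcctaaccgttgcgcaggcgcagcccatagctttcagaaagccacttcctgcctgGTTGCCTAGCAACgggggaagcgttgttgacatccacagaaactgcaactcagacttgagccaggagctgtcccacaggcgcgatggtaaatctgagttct
Hydin promoter, chr8:110266727-110267026, plus strand: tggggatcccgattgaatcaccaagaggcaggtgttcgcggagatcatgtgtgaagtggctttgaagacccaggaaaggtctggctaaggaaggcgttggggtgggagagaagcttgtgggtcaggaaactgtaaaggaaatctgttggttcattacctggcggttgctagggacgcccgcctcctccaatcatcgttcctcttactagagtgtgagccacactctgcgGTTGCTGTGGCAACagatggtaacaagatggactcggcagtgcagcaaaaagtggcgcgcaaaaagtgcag
Dnaic2 promoter, chr11:114727169-114727468, plus strand: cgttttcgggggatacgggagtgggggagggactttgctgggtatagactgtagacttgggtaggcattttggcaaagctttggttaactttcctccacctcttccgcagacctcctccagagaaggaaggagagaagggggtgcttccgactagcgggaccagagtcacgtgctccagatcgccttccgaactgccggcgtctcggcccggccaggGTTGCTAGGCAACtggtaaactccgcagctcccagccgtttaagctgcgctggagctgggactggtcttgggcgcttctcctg
The X-box begins 51 bases before the start in Dynlrb2, 21 before it in Hydin and 33 before it in Dnaic2.

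Within the titled control library the ependymal sum was set against all other barcodes, as a description, since the rule picked the cells by related genes. Restricted to genes with 100 or more ependymal UMIs, the 20 with the highest ratio included Cfap77, Spag17, Iqca, Akap14, Nme9 and Sntn, all parts of cilia, and Ccdc153 of the rule. Sntn, which encodes sentan of the ciliary tip, had 848.1 CPM in titled control ependymal cells and 1.08 CPM in other control barcodes. In the titled positive library Sntn had 619.5 CPM in ependymal cells and 0.102 CPM in other barcodes. Beside cilia genes the 20 held Cdhr3, a cadherin-related receptor, Plin5, a coat protein of lipid droplets, Rbp2, a cytosolic retinol binder, Slc14a2, a urea transporter, and Mb, myoglobin. Mb had 105.9 CPM in the ependymal cells against 0.165 CPM in other control barcodes and had a UMI in 37.2% of the 180 cells (9.44% at 1000 UMIs per cell), against 0.0271% of titled control oligodendrocyte-like barcodes. In titled positive ependymal cells Mb had 2 UMIs, 10.1 CPM, and other positive barcodes had 2.47 CPM.

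The 180 titled control cells were then compared with 1715 astrocyte-like barcodes of the same library, the parenchymal glia nearest to them in origin, and with 53 barcodes whose Ttr made up at least 5% of UMIs, the choroid plexus epithelium that also faces the ventricle. A gene was called higher or lower when its ratio was at least 2-fold and the 95% counting interval of the log2 ratio excluded 0, among genes with at least 10 UMIs over both sums. Against astrocyte-like barcodes 21.9% of 14289 genes were called higher and 15.9% lower, with a median log2 ratio of 0.06. Against Ttr-high barcodes 38.6% of 11360 genes were called higher and 5.32% lower, with a median of 0.86. These are differences within 1 library and have no replicate.

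Of 119 motile cilium genes outside the rule, 116 were tested against astrocyte-like barcodes, 115 were called higher and 0 lower, with a median log2 ratio of 6.44. Against Ttr-high barcodes 111 of 115 were higher and 0 lower, with a median of 3.45. Among dynein arm subunits, Tctex1d4, a light chain, had 628.2 CPM in ependymal cells, 0.902 CPM in astrocyte-like and 22.4 CPM in Ttr-high barcodes. Dnah5, the outer arm heavy chain whose loss causes primary ciliary dyskinesia in humans, had 120.6 CPM in ependymal cells, 1.20 CPM in astrocyte-like barcodes and 0 UMIs in Ttr-high barcodes. Dnah9, the other outer arm heavy chain of the pair, had 93.7 CPM in ependymal cells, 0 UMIs in astrocyte-like barcodes and 12.8 CPM in Ttr-high barcodes. Of the arm assembly and docking factors, Zmynd10, an assembly factor in the cytoplasm, had 191.5 CPM in ependymal cells, against 2.41 CPM in astrocyte-like and 32.0 CPM in Ttr-high barcodes.

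Of the radial spoke and central pair genes, Rsph1 had 939.4 CPM in ependymal cells, 2.41 CPM in astrocyte-like and 100.7 CPM in Ttr-high barcodes. Hydin, the giant protein of the central pair whose loss causes hydrocephalus in mice, had 103.5 CPM in ependymal cells, 0.150 CPM in astrocyte-like and 4.796 CPM in Ttr-high barcodes. Of the nexin-dynein regulatory complex, Iqca had 333.2 CPM in ependymal cells, against 1.053 CPM in astrocyte-like and 4.796 CPM in Ttr-high barcodes. Of the doublet microtubule proteins, Tekt1, a filament inside the doublet, had 383.7 CPM in ependymal cells, 4.06 CPM in astrocyte-like and 39.96 CPM in Ttr-high barcodes. Tppp3, a tubulin polymerisation protein, had 2345 CPM in ependymal cells, against 146.5 CPM in astrocyte-like and 73.5 CPM in Ttr-high barcodes, and stood at 463.1 CPM in all other control barcodes. The median ratio of the list was smaller against the Ttr-high barcodes than against the astrocyte-like ones.

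The transport and gate genes that all ciliated cells share had smaller ratios. Of 26 intraflagellar transport genes tested, 23 were called higher against astrocyte-like barcodes, with a median log2 ratio of 2.13. Ift20, a carrier subunit, had 523.1 CPM in ependymal cells against 90.4 CPM in astrocyte-like barcodes. Of 25 genes of the BBSome and transition zone, 22 were higher, with a median of 1.6, and Tmem107, a transition zone membrane protein, had 647.7 CPM in ependymal cells against 17 CPM in astrocyte-like barcodes. Of the regulators, Foxj1 belongs to the rule. Myb, which acts early in multiciliated cell formation, had 61.9 CPM in ependymal cells and 0.301 CPM in astrocyte-like barcodes. Rfx2 had 68.4 CPM in ependymal cells and 5.87 CPM in astrocyte-like barcodes, and Trp73, an activator of Foxj1, had 26.1 CPM in ependymal cells and 0 UMIs in astrocyte-like barcodes. Mcidas, the coactivator that starts centriole amplification, was at 0 UMIs in both ependymal sums, and Gmnc, which acts with it, had 1 UMI in titled positive and 2 UMIs in titled control cells. Ccdc78 and Deup1, proteins of the deuterosome that templates centrioles, had 170.3 and 35.03 CPM in ependymal cells, against 1.20 and 0.150 CPM in astrocyte-like barcodes. Against astrocyte-like barcodes 21.9% of all genes were called higher and 15.9% lower. Of 14 proliferation genes 7 were tested in that comparison, 2 were higher and 0 lower, with a median log2 ratio of 0.04. The 2 were Rrm2, a ribonucleotide reductase subunit, at 15.5 CPM in ependymal cells and 3.16 CPM in astrocyte-like barcodes, and Cenpf, a centromere protein, at 19.6 CPM in ependymal cells and 1.504 CPM in astrocyte-like barcodes. Mki67 and Top2a of the same list were at 0 UMIs in the titled control cells (0 of 180 cells, which allows a share of up to 1.67% of cells with a UMI).

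**Figure D1:**
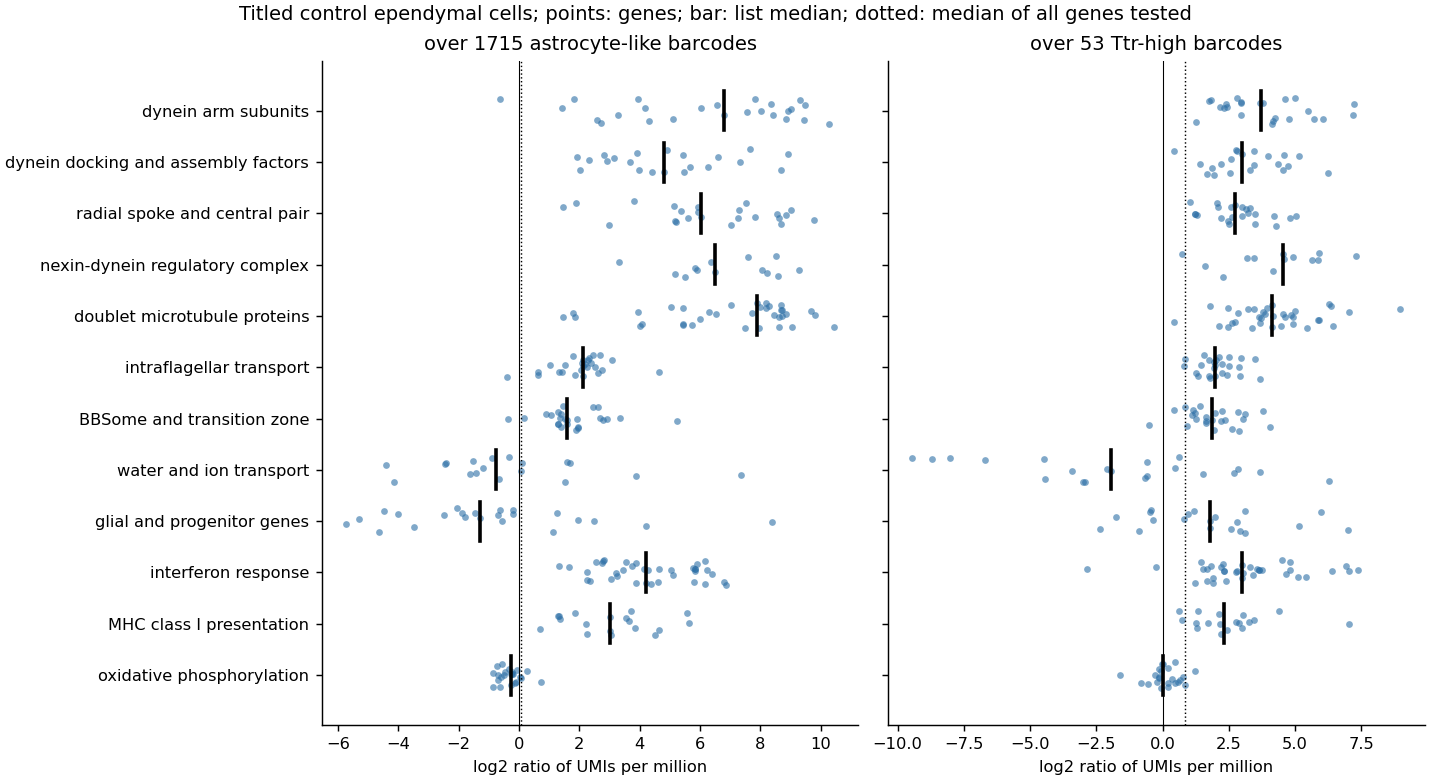
Log2 ratios of CPM for the genes of each list in the 180 titled control ependymal cells, over 1715 astrocyte-like barcodes on the left and over 53 Ttr-high barcodes on the right. Points are genes, bars are list medians and the dotted line is the median of all genes tested (0.06 on the left, 0.86 on the right); the axoneme lists sit far to the right in both, while water and ion transport lies left of 0.

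Glial identity was shared in part. Sox9 stood at 293.3 CPM in ependymal and 437.3 CPM in astrocyte-like barcodes, and S100b, a calcium-binding protein of both types, at 1185 CPM in ependymal and 1353 CPM in astrocyte-like barcodes, neither called. Of 23 glial and progenitor genes tested, 6 were higher and 12 lower in ependymal cells, where 21.9% of all genes were higher and 15.9% lower. Cd24a, a surface sialoglycoprotein of ependyma, had 1138 CPM in ependymal cells against 3.31 CPM in astrocyte-like barcodes. Vim, an intermediate filament, had 1910 CPM in ependymal cells against 799.3 CPM in astrocyte-like barcodes, and Gfap, the glial intermediate filament, 251.8 CPM in ependymal cells against 44.7 CPM in astrocyte-like barcodes. Slc1a3, a glutamate transporter, and Fabp7, a fatty acid carrier of radial glia, were lower, Slc1a3 at 282.7 CPM in ependymal cells against 7129 CPM in astrocyte-like barcodes and Fabp7 at 242.8 CPM in ependymal cells against 3908 CPM in astrocyte-like barcodes.

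Water and ion transport genes were called in both directions. Of 18 tested against astrocyte-like barcodes 5 were higher and 8 lower, where 21.9% of all genes were higher and 15.9% lower. Of 21 tested against Ttr-high barcodes 5 were higher and 11 lower, where 38.6% of all genes were higher and 5.32% lower. Aqp4, the water channel of glial endfeet and of the ependymal basolateral membrane, had 622.5 CPM in ependymal cells, 1657 CPM in astrocyte-like and 48.0 CPM in Ttr-high barcodes. Kcnj10, an inward rectifier potassium channel, had 501.1 CPM in ependymal cells, against 787.3 CPM in astrocyte-like and 76.7 CPM in Ttr-high barcodes. Scn7a, a sodium channel that senses sodium levels, had 61.9 CPM in ependymal cells, 0.301 CPM in astrocyte-like barcodes and 0 UMIs in Ttr-high barcodes. It is also on the tanycyte list, of which 8 genes were tested against astrocyte-like barcodes, with 2 higher (Scn7a and Crym) and 5 lower. The choroid plexus genes Clic6, Slc4a10 and Kcnj13 had 13, 17 and 2 UMIs in the 180 cells.

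Carriers and secreted factors added further contrasts. Lrp2, the endocytic receptor megalin, had 33.4 CPM in ependymal cells and 0 UMIs in both comparison types. Cd36, a fatty acid transporter, had 92.9 CPM in ependymal cells against 1.504 CPM in astrocyte-like barcodes and 0 UMIs in Ttr-high barcodes. Cp, the ferroxidase ceruloplasmin, had 361.7 CPM in ependymal cells, against 22.3 CPM in astrocyte-like and 14.4 CPM in Ttr-high barcodes. Folr1, the folate receptor better known from choroid plexus, had 268.0 CPM in ependymal cells, 1.504 CPM in astrocyte-like and 645.8 CPM in Ttr-high barcodes. Car9, a carbonic anhydrase on the cell surface, had 110.8 CPM in ependymal cells, against 0.301 CPM in astrocyte-like and 0 UMIs in Ttr-high barcodes. Of the claudins, Cldn9 had 22 UMIs in the 180 cells, and Cldn1 and Cldn3 had 0. Krt8 and Krt18, keratins of simple epithelia, had 97.8 and 119.8 CPM in titled control ependymal cells, against 1.01 and 2.17 CPM in other control barcodes, so these 2 of the 11 carcinoma markers were found in ependyma of the library with few carcinoma barcodes.

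Transcription factors that mark brain regions were found in a minority of cells. Msx1, a dorsal midline factor, had a UMI in 25% of 36 titled positive and 38.9% of 180 titled control cells. Irx3 was detected in 36.1% of titled positive and 22.2% of titled control cells, and Otx2, a factor of the forebrain and midbrain, in 25% of titled positive and 21.7% of titled control cells. Otx2 is also one of the choroid plexus markers used here. In oligodendrocyte-like barcodes of the titled control library (median 6327.5 UMIs, against 5886 in ependymal cells) the shares were 0.353% for Msx1, 0.489% for Irx3 and 0.624% for Otx2. At 1000 UMIs per cell the titled control shares dropped to 7.22% for Msx1, 7.22% for Irx3 and 5.56% for Otx2, so these shares depend on depth. Emx2 and Six3, factors of the telencephalon and anterior forebrain, Rax and Nkx2-1 of the hypothalamus, and Hoxb4 of the hindbrain and spinal cord were at 0 UMIs in all members; 0 of 36 cells allows a share of up to 8.33% and 0 of 180 up to 1.67% of cells with a UMI.

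Titled control ependymal cells had interferon-inducible, MHC class I and complement RNA at levels mostly above both comparison types, while MHC class II genes were mixed. Of 37 interferon response genes tested against astrocyte-like barcodes 37 were higher (median log2 ratio 4.2), and 34 of 36 were higher against Ttr-high barcodes. Ifitm3, an antiviral membrane protein, had 8727 CPM in ependymal cells, 120.3 CPM in astrocyte-like and 1084 CPM in Ttr-high barcodes. Isg15, a ubiquitin-like modifier, had 1872 CPM in ependymal cells, against 15.9 CPM in astrocyte-like and 65.5 CPM in Ttr-high barcodes. Of 18 MHC class I presentation genes 17 were higher against astrocyte-like barcodes, with a median of 3.03, and H2-D1, a classical class I heavy chain, had 4811 CPM in ependymal cells against 365.1 CPM in astrocyte-like barcodes. Of 7 MHC class II genes tested against astrocyte-like barcodes 2 were higher and 3 lower, with a median of -0.58, and of 6 tested against Ttr-high barcodes 2 were higher and 1 lower, with a median of 0.20. Cd74, the class II invariant chain, had 39.1 CPM in ependymal cells, against 145.3 CPM in astrocyte-like and 78.3 CPM in Ttr-high barcodes. The complement gene C3 had 740.6 CPM in ependymal cells and 2.26 CPM in astrocyte-like barcodes, and C4b had 639.6 CPM in ependymal cells and 33.4 CPM in astrocyte-like barcodes. In other control barcodes as a whole, microglia included, Isg15 had 49.0 CPM and C3 7.88 CPM.

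Among the 180 titled control cells axoneme RNA was found in nearly all. The summed motile cilium genes ranged from 3.09 to 483 UMIs per 10000 with a median of 329, and 3 cells, 2 of them mixed barcodes, fell under 50. In the 36 titled positive cells the sum ranged from 90.8 to 301.4, with a median of 231. The 18 titled control cells with the most Ccdc153 held 25.7% of its UMIs. After thinning to 2000 UMIs per cell, the 18 cells with the most UMIs of a gene held a median of 44.2% of them over 492 genes. Ucma, a secreted matrix protein, had 100% of its UMIs in 18 cells, Cxcl10, a chemokine, 97.2%, Npy, neuropeptide Y, 81.0%, and Steap4, a metalloreductase, 68.5%. Lcn2, the iron-siderophore binder lipocalin 2, had 93.7%. Over the 156 cells left without mixed barcodes, the same proportion of cells held 98.1% of the UMIs of Ucma, 99.0% of Cxcl10, 79.0% of Npy, 69.1% of Steap4 and 93.9% of Lcn2.

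Lcn2 split the cells within each library. It ranged from 0 to 479 UMIs per 10000 with a median of 116 in titled positive cells, and from 0 to 221 with a median of 0 in titled control cells. At least 10 Lcn2 UMIs were found in 23 of 36 titled positive cells (63.9%), which held 98.8% of the Lcn2 UMIs, and in 20 of 180 titled control cells (11.1%), which held 95.6%. At 1000 UMIs per cell Lcn2 was detected in 83.3% of titled positive and 14.4% of titled control ependymal cells, against 17.4% of titled positive and 0.57% of titled control oligodendrocyte-like barcodes. Most titled control cells had none and a small set had at least 10, while 13 titled positive cells (36.1%) had under 10.

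The 20 titled control cells with at least 10 Lcn2 UMIs were described beside the other 160, with no test, since the sets were chosen by Lcn2. They were deeper, with a median of 8924.5 UMIs against 5739.5 UMIs in the other cells. C3 had 2136 CPM in them and 499.7 CPM in the other cells, Steap4 had 641.9 CPM in them and 200.6 CPM in the other cells, and Chil1, a secreted chitinase-like protein, 569.9 CPM in them and 206.4 CPM in the other cells. Isg15 had 2811 CPM in the Lcn2-rich cells and 1710 CPM in the others, while Foxj1 had 686.1 CPM in the Lcn2-rich cells and 704.1 CPM in the others. Nnat, the endoplasmic reticulum proteolipid neuronatin, was at 5755 CPM in the Lcn2-rich cells and 9182 CPM in the others. Without mixed barcodes, C3 had 2297 CPM in 19 Lcn2-rich cells and 524.4 CPM in 137 others, and Steap4 had 667.4 CPM in the Lcn2-rich cells and 213.9 CPM in the others. Of the titled positive cells, the 23 with at least 10 Lcn2 UMIs had 1697 CPM of C3 against 781.8 CPM in the other 13, and 386.0 CPM of Chil1 against 13.5 CPM in the other 13. Isg15 ran the other way there, at 546.9 CPM in the 23 cells against 808.7 CPM in the other 13. Without mixed barcodes, C3 had 1706 CPM in 22 Lcn2-rich titled positive cells and 821.0 CPM in the other 12, and Isg15 589.0 CPM in the Lcn2-rich and 806.0 CPM in the others.

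**Figure D2:**
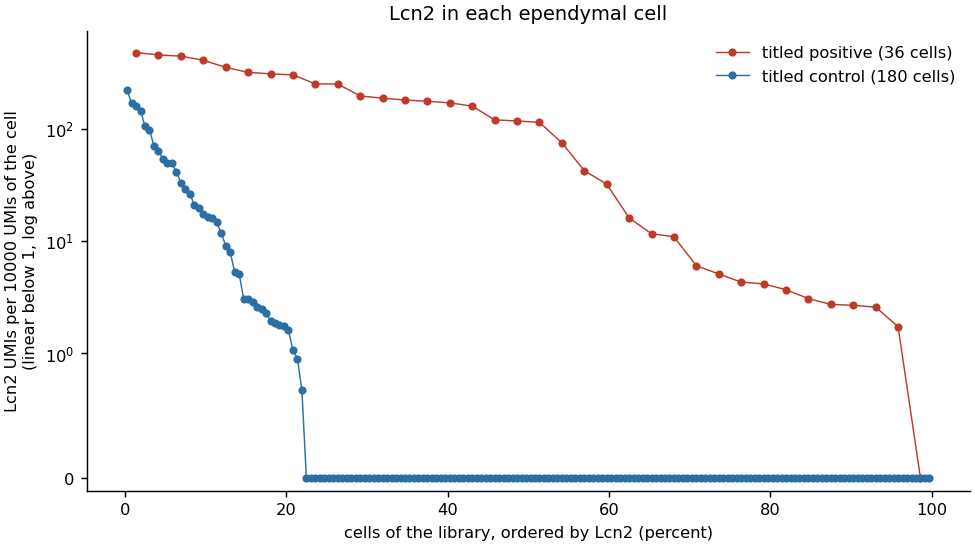
Lcn2 UMIs per 10000 UMIs of the cell (linear below 1, log above) in each ependymal cell, with the cells of each library ordered by Lcn2 along the horizontal axis in percent. The 36 titled positive cells run from 479 down to 0 with a median of 116, while Lcn2 has a UMI in 40 of the 180 titled control cells and is at 0 in the rest.

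The titled positive ependymal cells were next set against the titled control ones. Of 10771 genes tested 599 were called higher (5.56%) and 695 lower (6.45%), and the median log2 ratio was -0.09. Of the 599 higher genes 378 had a higher level in ependymal cells than in all other titled positive barcodes, and of the 695 lower genes 446 had a higher level in titled control ependymal cells than in other control barcodes. Markers of other cell types were also found in the ependymal sums. The 11 carcinoma markers summed to 1486 CPM in titled positive ependymal cells, 17.8% of the 8350 CPM in other positive barcodes, and 32 of the 36 cells held at least 3 of them. They summed to 244.4 CPM in titled control cells, most of it the keratins named above. Neutrophil markers summed to 664.9 CPM in titled positive and 39.1 CPM in titled control cells, which is 16.6% of the level in other positive and 7.10% of that in other control barcodes. Oligodendrocyte markers summed to 715.2 CPM in titled positive and 6256 CPM in titled control cells, microglial markers to 936.9 CPM in titled positive and 1969 CPM in titled control cells, and astrocyte markers to 856.3 CPM in titled positive and 1917 CPM in titled control cells. The part of these other cells in the ratios that follow was not tested, and levels in other barcodes stand beside genes called higher.

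By the ordering fixed for named genes, the 10 highest genes included Krt7, Wfdc2 and Spp1, of which Krt7 and Wfdc2 are carcinoma markers and Spp1 is osteopontin. Krt7 had 171.3 CPM in titled positive ependymal cells and 789.1 CPM in other positive barcodes, Wfdc2 had 317.3 CPM in those ependymal cells and 2156 CPM in other positive barcodes, and Spp1 had 277.0 CPM in those ependymal cells and 2563 CPM in other positive barcodes. The 10 lowest included Ermn, Mag and P2ry12, markers of oligodendrocytes and microglia, all with higher levels in other control barcodes than in ependymal ones. P2ry12 had 5.04 CPM in titled positive and 249.3 CPM in titled control ependymal cells, with 24.4 CPM in other positive and 1312 CPM in other control barcodes. Of 14 proliferation genes 7 were tested between the libraries, Cdk1 and Tyms were called higher and 0 lower, with a median log2 ratio of 1.71. Their sum per cell had a median of 3.66 UMIs per 10000 in titled positive and 0 in titled control cells, with and without mixed barcodes. Cdk1, the mitotic kinase, had 55.4 CPM in titled positive and 0.815 CPM in titled control ependymal cells, with 288.6 CPM in other positive barcodes, and each of the 14 genes had a higher level in other positive barcodes than in titled positive ependymal cells; the part of those barcodes in the result was not tested.

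**Figure D3:**
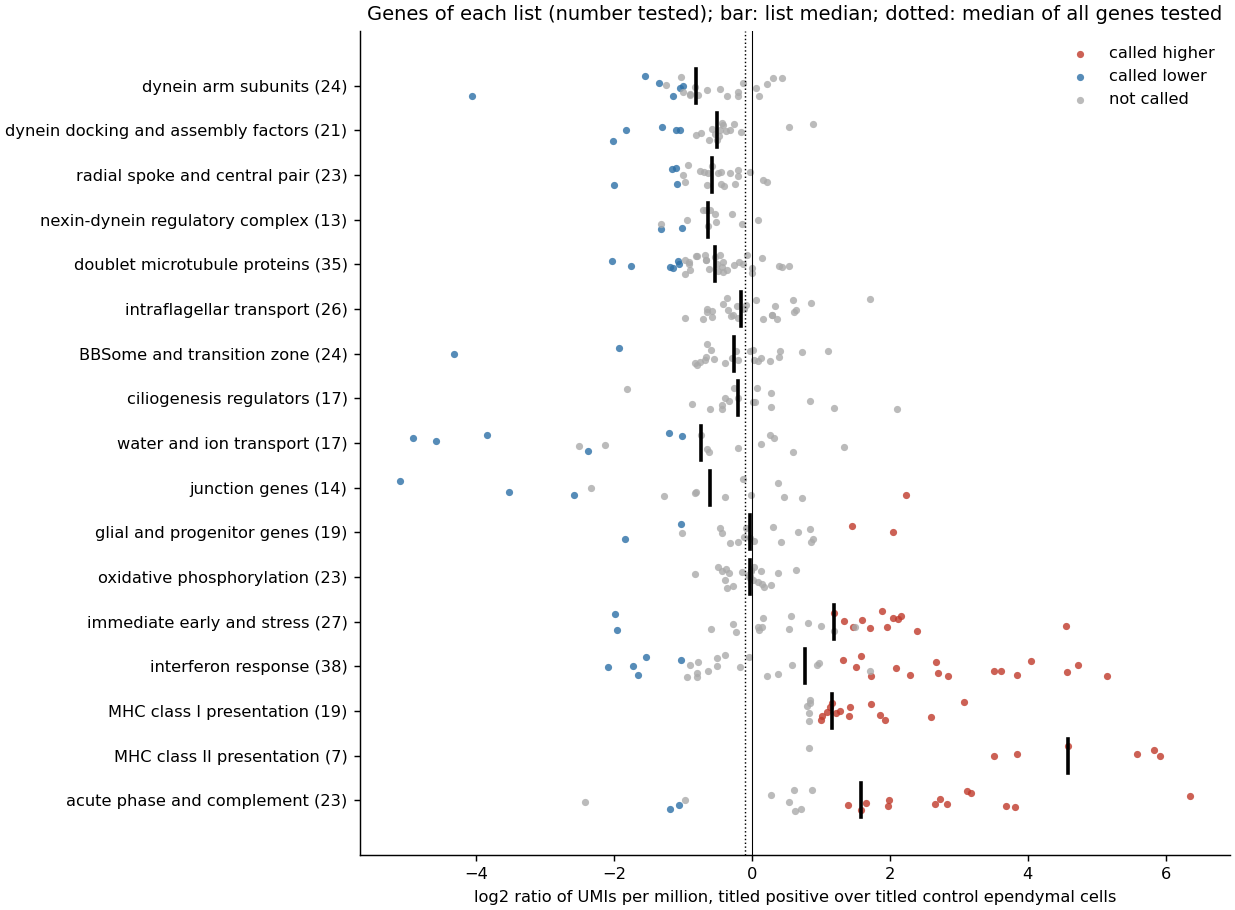
Log2 ratios of CPM, titled positive over titled control ependymal cells, for the tested genes of each list (number in brackets). Red points were called higher, blue lower and grey neither, with the pseudocount setting points of genes at 0 in 1 library; bars are list medians and the dotted line is the median of all genes tested (-0.09), with the MHC, acute phase and stress lists right of it and the axoneme lists left of it.

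The axoneme genes moved in 1 direction where they were called. Of 115 motile cilium genes tested 0 were called higher and 23 lower, 101 of the 115 had a ratio below 0, and the median log2 ratio was -0.57, against -0.09 for all genes. By structure, 6 of 24 dynein arm subunits (median -0.81), 5 of 21 docking and assembly factors (-0.51), 4 of 23 radial spoke and central pair genes (-0.57), 2 of 13 nexin-dynein genes (-0.64) and 6 of 35 doublet microtubule proteins (-0.53) were lower. Spef2, an adapter of the central pair, had 75.5 CPM in titled positive and 310.4 CPM in titled control cells (log2 ratio -1.99, 95% interval -2.89 to -1.30). Stoml3, a stomatin-like membrane protein, had 95.7 CPM in titled positive and 400.0 CPM in titled control cells (-2.03, -2.81 to -1.41). Wdr63, an inner arm intermediate chain, had 120.9 CPM in titled positive and 362.6 CPM in titled control cells (-1.56, -2.24 to -0.99), and Dnah10, an inner arm heavy chain, had 0 UMIs in titled positive and 51 UMIs in titled control cells.

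Other axoneme genes had ratios nearer to 0 and were not called. Tppp3 had 3178 CPM in titled positive and 2345 CPM in titled control cells (log2 ratio 0.44). Cfap126, also called Flattop, a protein inside the doublets, had 1511 CPM in titled positive and 1649 CPM in titled control cells (-0.12), Nme5, of the radial spoke, 503.7 CPM in titled positive and 515.7 CPM in titled control cells (-0.03), and Hydin 75.5 CPM in titled positive and 103.5 CPM in titled control cells (-0.41, -1.33 to 0.32). No intraflagellar transport gene of 26 tested was called, with a median of -0.16. Of 24 BBSome and transition zone genes 2 were lower (median -0.26), and none of 17 regulators was called (median -0.21). Since cells entered by cilium genes, the same in both libraries, these counts are a description.

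The tubulins Tubb4b and Tuba1a and the chaperones Hsp90aa1 and Dnajb1 were lower. Tubb4b, the beta tubulin of motile axonemes, ranged from 0 to 31.4 UMIs per 10000 with a median of 10.2 in titled positive cells, and from 0.952 to 121 with a median of 25.3 in titled control cells. The ranges overlap, with the titled positive cells in the lower part. Its summed level was 1028 CPM in titled positive and 2922 CPM in titled control cells (log2 ratio -1.50, -1.72 to -1.30). Tuba1a had 2811 CPM in titled positive and 5965 CPM in titled control cells (-1.08, -1.21 to -0.96), which came under 2-fold at equal depth (-0.95), after centring (-0.99) and with 20% free RNA subtracted (-0.99). Of 21 tubulin and tubulin-modifying genes 5 were higher and 4 lower, and 3 of the higher, Tuba1c, Tubb6 and Tubb5, were higher still in other positive barcodes. Hsp90aa1, a cytosolic chaperone, had 765.6 CPM in titled positive and 3054 CPM in titled control cells (-1.99, -2.24 to -1.76), and Dnajb1 30.2 CPM in titled positive and 126.3 CPM in titled control cells (-1.95).

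Nnat, Clec3b, Hist1h4h and Dbi were lower, and each stood at a lower level in other control barcodes than in titled control ependyma. Nnat ranged from 0 to 200 UMIs per 10000 with a median of 7 in titled positive cells, and from 0 to 305 with a median of 74.6 in titled control cells. Its sum was 2463 CPM in titled positive and 8678 CPM in titled control cells (log2 ratio -1.81, -1.95 to -1.69), with 2.61 CPM in other positive and 138.0 CPM in other control barcodes. Clec3b, the plasminogen binder tetranectin, had 25.2 CPM in titled positive and 374.0 CPM in titled control cells (-3.76, -5.52 to -2.66). At 2000 UMIs per cell Clec3b was detected in 2.78% of titled positive and 47.2% of titled control ependymal cells, against 0 of 298 titled positive and 1.03% of titled control oligodendrocyte-like barcodes. Hist1h4h, a histone gene, had 30.2 CPM in titled positive and 386.2 CPM in titled control cells (-3.56). Dbi, the acyl-CoA binding protein, had 4770 CPM in titled positive and 11280 CPM in titled control cells (-1.24), and Mt3, the metallothionein of the nervous system, 4468 CPM in titled positive and 8566 CPM in titled control cells (-0.94, not called).

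Water and ion transport genes were lower or not called. Of 17 tested 0 were higher and 6 lower, with a median log2 ratio of -0.74. Aqp4 had 307.3 CPM in titled positive and 622.5 CPM in titled control cells (-1.01, -1.42 to -0.64), a ratio that fell short of 2-fold under 8 of the alternatives (-0.86 to -1.0). Aqp4 is also on the list of 12 astrocyte markers, of which 0 were higher and 8 lower, with a median of -1.37. The part of astrocyte RNA in its ratio was not tested. Kcnj16, a potassium channel partner of Kcnj10, had 35.3 CPM in titled positive and 86.4 CPM in titled control cells (-1.20). Kcnj10 had 322.4 CPM in titled positive and 501.1 CPM in titled control cells (-0.63, not called). The other lower genes included Car2, Slc4a4 and Car14, which had higher levels in other control barcodes than in titled control ependymal cells. Of 14 junction genes 1 was higher and 3 lower, and Gja1, connexin 43, had 211.6 CPM in titled positive and 376.4 CPM in titled control cells (-0.82, not called).

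Vim was higher, and Gfap and Cd24a came close to the limit of a call. Vim ranged from 22 to 102 UMIs per 10000 with a median of 49.9 in titled positive cells, and from 0 to 67.0 with a median of 15.8 in titled control cells. The sums were 5223 CPM in titled positive and 1910 CPM in titled control cells (log2 ratio 1.45, 1.34 to 1.56), with 2062 CPM in other positive and 288.4 CPM in other control barcodes, so the titled positive ependymal level was 253% of that around it. Gfap had 463.4 CPM in titled positive and 251.8 CPM in titled control cells (0.89, 0.53 to 1.22) and Cd24a 2040 CPM in titled positive and 1138 CPM in titled control cells (0.84, 0.68 to 1.00), neither past 2-fold in these sums. Cd24a reached 1.25 at 1000 UMIs per cell. Sox9 had 251.8 CPM in titled positive and 293.3 CPM in titled control cells and S100b 861.3 CPM in titled positive and 1185 CPM in titled control cells, with no call.

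Metallothioneins of the inducible kind were higher. Mt1 ranged from 49.9 to 481 UMIs per 10000 with a median of 243 in titled positive cells, and from 3.34 to 358 with a median of 75.8 in titled control cells. Its sum was 23040 CPM in titled positive and 8127 CPM in titled control cells (log2 ratio 1.503, 1.452 to 1.55), with 1650 CPM in other positive and 2289 CPM in other control barcodes. Mt2 had 4830 CPM in titled positive and 1543 CPM in titled control cells (1.65, 1.53 to 1.76), with 405.1 CPM in other positive and 391.4 CPM in other control barcodes.

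**Figure D4:**
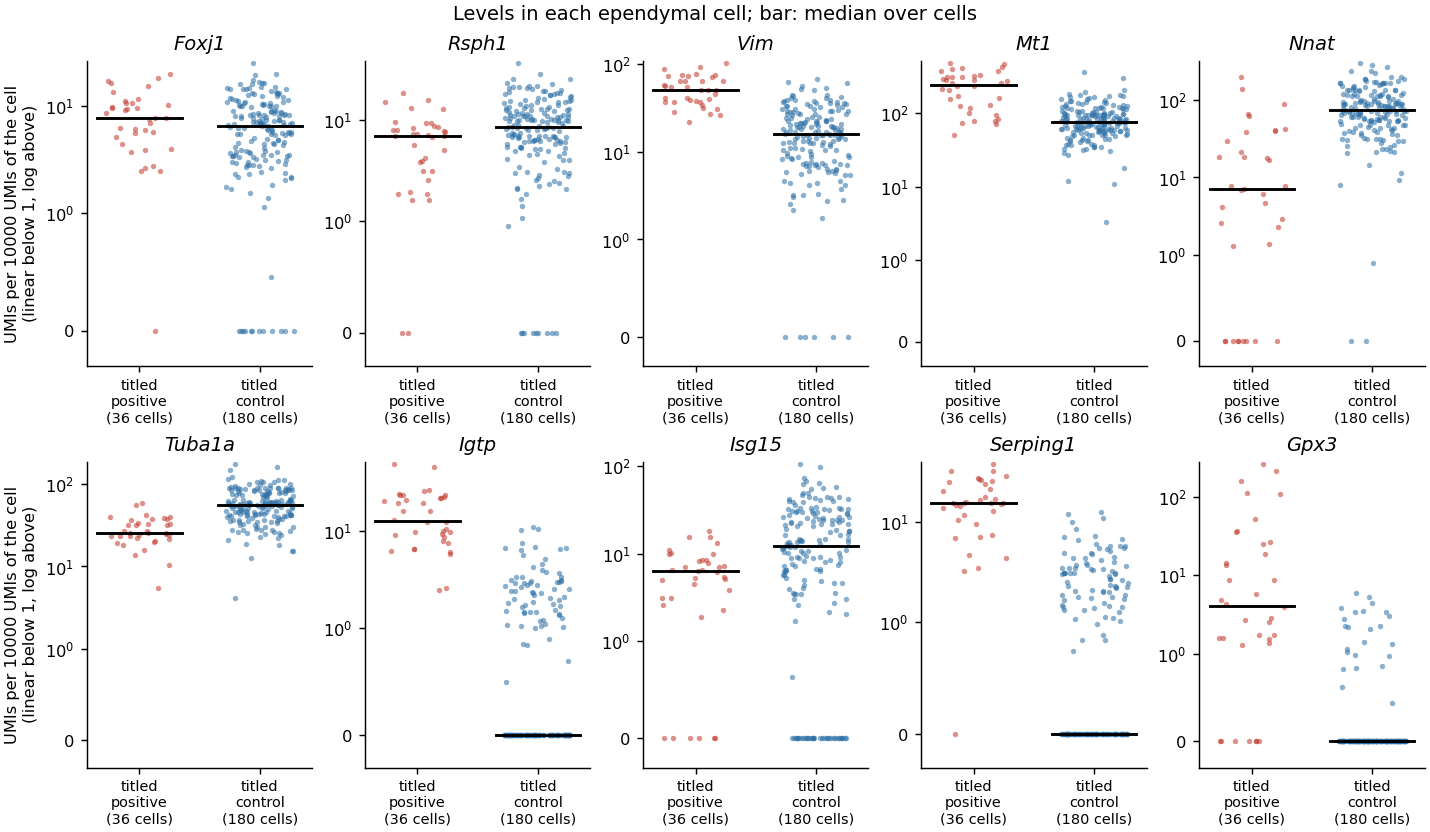
UMIs of 10 genes per 10000 UMIs of each ependymal cell (linear below 1, log above), with the 36 titled positive cells left and the 180 titled control cells right in each panel and the bar at the median. Vim, Mt1, Igtp and Serping1 have the higher median in titled positive cells and Nnat and Tuba1a in titled control cells, while Foxj1 and Rsph1 overlap widely.

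The interferon list moved in both directions. Interferons act through STAT and IRF factors at response elements that hold repeats of GAAA; type I interferon induces genes such as Isg15, Ifit1 and Mx2, and interferon gamma strongly induces the immunity-related and guanylate-binding GTPases and MHC genes. Of 38 genes tested 16 were called higher and 5 lower, with a median log2 ratio of 0.76. The split by gene family that follows was chosen after the values were seen. Of 14 interferon-inducible GTPases 11 were higher and 0 lower, with a median of 3.18, and of 13 tested genes of the Isg15, Ifit, Oas and Mx families and their regulators 1 was higher and 5 lower, with a median of -0.90.

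Promoters of 3 of these genes are shown because they stand for both directions. The letters GAAANNGAAA, on either strand, occurred in the RefSeq promoter window of 10 of 11 GTPase genes with a sequence (90.9%, of 14 listed), of 20 of 30 interferon response genes (66.7%) and of 3.99% of all genes. Isg15 was lower in titled positive cells and the GTPases Igtp and Irgm1 were higher. Capitals mark GAAANNGAAA, overlapping matches are joined, and each sequence runs 5′ to 3′ on the strand of its gene (RefSeq, GRCm38.p6).
Isg15 promoter, chr4:156200769-156201068, minus strand: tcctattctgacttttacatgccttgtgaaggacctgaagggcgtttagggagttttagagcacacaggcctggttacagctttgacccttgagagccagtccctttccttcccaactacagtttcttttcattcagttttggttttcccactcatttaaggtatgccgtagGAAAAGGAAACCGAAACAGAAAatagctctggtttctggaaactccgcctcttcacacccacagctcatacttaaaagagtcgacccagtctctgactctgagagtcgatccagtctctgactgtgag
Igtp promoter, chr11:58199306-58199605, plus strand: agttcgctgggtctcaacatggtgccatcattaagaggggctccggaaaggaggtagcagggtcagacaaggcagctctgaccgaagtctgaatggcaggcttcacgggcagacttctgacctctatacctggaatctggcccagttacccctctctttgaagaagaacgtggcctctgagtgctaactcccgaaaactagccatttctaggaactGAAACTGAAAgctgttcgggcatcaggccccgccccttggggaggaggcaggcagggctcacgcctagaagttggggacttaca
Irgm1 promoter, chr11:48871371-48871670, minus strand: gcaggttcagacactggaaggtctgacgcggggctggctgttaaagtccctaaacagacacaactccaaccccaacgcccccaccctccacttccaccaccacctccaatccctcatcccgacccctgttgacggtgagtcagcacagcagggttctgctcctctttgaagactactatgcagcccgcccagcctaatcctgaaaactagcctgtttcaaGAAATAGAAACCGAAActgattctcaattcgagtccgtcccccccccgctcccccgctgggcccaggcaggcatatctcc
Isg15 held 3 matches, Irgm1 2 and Igtp 1, so genes that moved in opposite directions shared the motif.

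The GTPases summed to 7676 CPM in titled positive and 1207 CPM in titled control ependymal cells (log2 ratio 2.67, 2.57 to 2.77; 2.55 without mixed barcodes). Other positive barcodes stood at 3896 CPM and other control barcodes at 211.3 CPM. Igtp, a GTPase that acts at vacuoles of intracellular parasites, ranged from 2.44 to 48.6 UMIs per 10000 with a median of 12.6 in titled positive cells, and from 0 to 10.8 with a median of 0 in titled control cells. Only part of the ranges overlapped, and all 36 titled positive cells had a UMI. The Igtp sums were 1672 CPM in titled positive and 116.5 CPM in titled control cells (3.84, 3.56 to 4.14), with 604.5 CPM in other positive and 21.7 CPM in other control barcodes. At 1000 UMIs per cell Igtp was found in 77.8% of titled positive and 8.33% of titled control ependymal cells, against 58.7% of titled positive and 0.217% of titled control oligodendrocyte-like barcodes, so it was widespread in the titled positive library outside ependyma as well.

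Other GTPases had the same order. Iigp1 had 1123 CPM in titled positive and 91.2 CPM in titled control cells (3.62), with 478.7 CPM in other positive and 8.86 CPM in other control barcodes. Irgm1, a regulator of the other immunity-related GTPases, had 1048 CPM in titled positive and 145.8 CPM in titled control cells (2.84), with 608.4 CPM in other positive and 54.5 CPM in other control barcodes. Gbp2, a guanylate-binding protein, had 1330 CPM in titled positive and 312.9 CPM in titled control cells (2.09), with 542.3 CPM in other positive and 12.6 CPM in other control barcodes. Gbp4 had 488.6 CPM in titled positive and 20.4 CPM in titled control cells, and its level in other positive barcodes was close to the ependymal one, at 487.6 CPM. Reads of near-identical copies such as Tgtp1 and Tgtp2, Ifit3 and Ifit3b, or the H2-Q genes may be divided between them, so their single values are uncertain. Irf1, a transcription factor of the response, had 206.5 CPM in titled positive and 32.6 CPM in titled control cells (2.66), with 220.9 CPM in other positive barcodes.

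The Isg15 set summed to 2473 CPM in titled positive and 5015 CPM in titled control cells (log2 ratio -1.02, -1.16 to -0.89; -1.10 without mixed barcodes), with 1499 CPM in other positive and 282.6 CPM in other control barcodes. Isg15 ranged from 0 to 18.1 UMIs per 10000 with a median of 6.32 in titled positive cells, and from 0 to 107 with a median of 12.2 in titled control cells. The titled positive cells lay within the lower part of the titled control range. The Isg15 sums were 644.7 CPM in titled positive and 1872 CPM in titled control cells (-1.53, -1.81 to -1.28), with 370.3 CPM in other positive and 49.0 CPM in other control barcodes. Ifit1 had 90.7 CPM in titled positive and 308.8 CPM in titled control cells (-1.73, -2.54 to -1.09), a call lost at 1000 UMIs per cell (-1.28, -3.36 to 0.01). Ifit3b, Irf9 and Mx2 were the other 3 lower genes. Ifitm3 had 10190 CPM in titled positive and 8727 CPM in titled control cells (0.22) and Bst2, tetherin, 1022 CPM in titled positive and 1349 CPM in titled control cells (-0.40), neither called. Over all other barcodes, which are unlike mixtures of cells in each library, Isg15 had the higher level in the titled positive library. Within ependymal cells Isg15 was lower there.

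**Figure D5:**
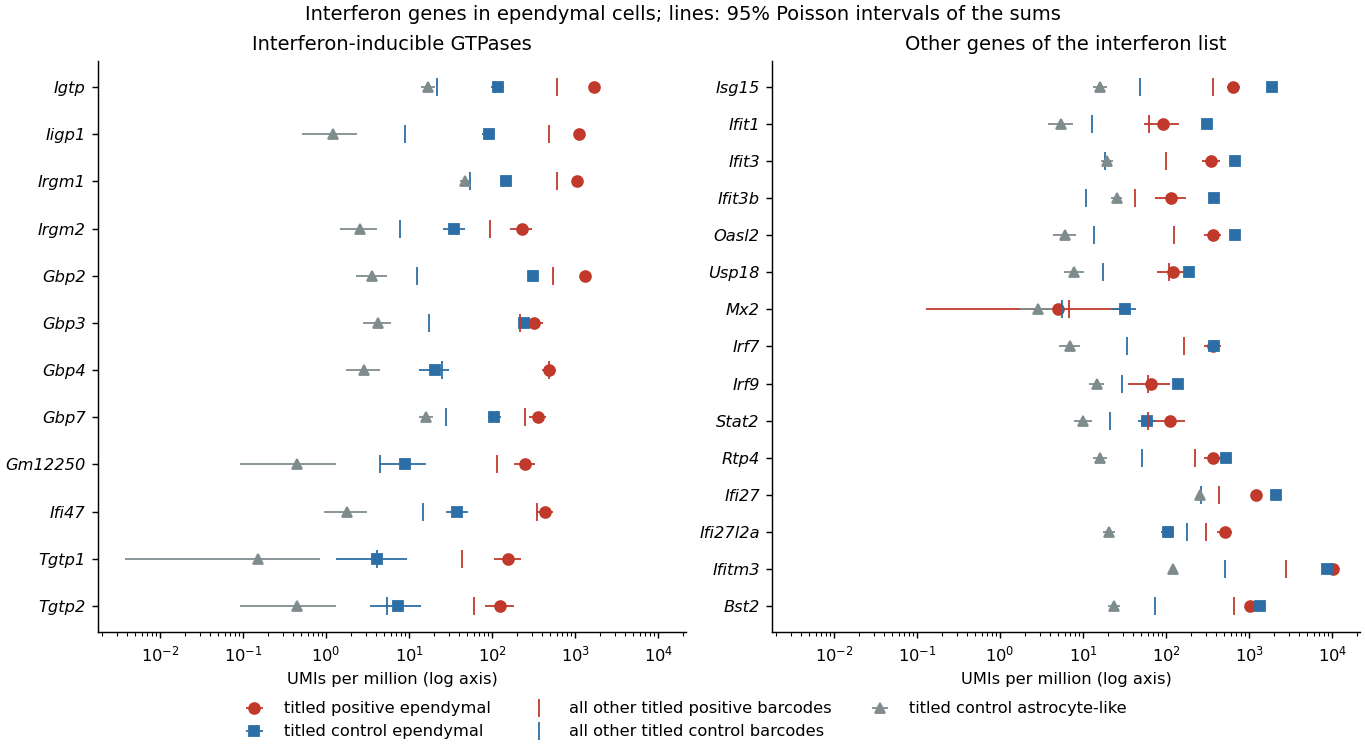
CPM (log axis) of interferon-inducible GTPases on the left and other interferon list genes on the right. Circles are titled positive and squares titled control ependymal cells with 95% Poisson intervals, ticks are all other barcodes of each library and triangles titled control astrocyte-like barcodes; most GTPases lie further right in titled positive than in titled control cells, Igtp at 1672 against 116.5, while Isg15 lies left, at 644.7 against 1872.

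MHC class I presentation genes, which display peptides of the cytosol to CD8 T cells, were called in 1 direction. Of 19 tested 14 were called higher and 0 lower, all 19 had a ratio above 0, and the median log2 ratio was 1.16. B2m, the light chain, ranged from 36.2 to 137 UMIs per 10000 with a median of 79.7 in titled positive cells, and from 0 to 89.8 with a median of 25.9 in titled control cells. Its sum was 8059 CPM in titled positive and 3003 CPM in titled control cells (1.42, 1.34 to 1.51), with 7099 CPM in other positive and 1972 CPM in other control barcodes. H2-D1 had 11170 CPM in titled positive and 4811 CPM in titled control cells (1.22), with 8005 CPM in other positive and 1387 CPM in other control barcodes. Tap1, a subunit of the peptide transporter, had 503.7 CPM in titled positive and 83.1 CPM in titled control cells (2.60, 2.19 to 3.01), with 236.7 CPM in other positive and 15.8 CPM in other control barcodes, and H2-T23, a nonclassical heavy chain, 1652 CPM in titled positive and 624.9 CPM in titled control cells (1.40), with 561.1 CPM in other positive barcodes. H2-K1 had 5485 CPM in titled positive and 3073 CPM in titled control cells (0.84, not called).

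MHC class II genes, which display peptides to CD4 T cells and are best known from professional antigen-presenting cells, were at low levels in titled control ependyma. Of 7 tested 6 were called higher and 0 lower, with a median log2 ratio of 4.59. H2-Ab1, a class II beta chain, ranged from 0 to 75.3 UMIs per 10000 with a median of 7.62 in titled positive cells, and from 0 to 13.6 with a median of 0 in titled control cells. The sums were 1199 CPM in titled positive and 83.1 CPM in titled control cells (3.85, 3.51 to 4.2). In other positive barcodes H2-Ab1 stood at 1139 CPM, and the ependymal level was 105% of it. Cd74, the invariant chain, had 2241 CPM in titled positive and 39.1 CPM in titled control cells (5.83, 5.41 to 6.30), 43.6% of the 5141 CPM in other positive barcodes. H2-Aa had 1148 CPM in titled positive and 23.6 CPM in titled control cells (5.58), 78.4% of the level around it. At 1000 UMIs per cell H2-Ab1 was found in 58.3% of titled positive ependymal cells against 15.1% of oligodendrocyte-like barcodes of that library, and Cd74 in 63.9% against 48.3%. Cd74 was uneven, with 53.9% of its UMIs in 4 of the 36 cells and 49.6% in 4 of 34 cells without mixed barcodes (log2 ratio then 5.59). Ciita, the class II transactivator, had 7 UMIs in titled positive and 1 UMI in titled control cells. Microglial markers summed to 29.0% and macrophage markers to 16.4% of the level in other positive barcodes; their part in the class II levels was not tested.

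Acute phase and complement genes were mostly higher where called. Of 23 tested 13 were called higher and 2 lower, with a median log2 ratio of 1.59. Lcn2 had 14630 CPM in titled positive and 1040 CPM in titled control cells (3.81, 3.72 to 3.91), with 1975 CPM in other positive and 67.2 CPM in other control barcodes. Without mixed barcodes its log2 ratio was 3.68. Serping1, the C1 inhibitor, ranged from 0 to 37.3 UMIs per 10000 with a median of 15.4 in titled positive cells, and from 0 to 12.4 with a median of 0 in titled control cells. Its sum was 1622 CPM in titled positive and 187.4 CPM in titled control cells (3.11, 2.87 to 3.36), with 33.3 CPM in other positive and 18.9 CPM in other control barcodes.

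Complement components differed among themselves. C1s1 and C1ra, the serine proteases of the first component, were both higher. C1s1 had 357.6 CPM in titled positive and 57.0 CPM in titled control cells (2.65), with 20.9 CPM in other positive barcodes, and C1ra had 141.0 CPM in titled positive and 21.2 CPM in titled control cells (2.73), with 26.4 CPM in other positive barcodes. Serpina3n, a serine protease inhibitor of reactive astrocytes, had 1058 CPM in titled positive and 116.5 CPM in titled control cells (3.18, 2.87 to 3.499), with 139.3 CPM in other positive barcodes. Cp had 1441 CPM in titled positive and 361.7 CPM in titled control cells (1.99, 1.77 to 2.21), with 662.9 CPM in other positive barcodes. C3 had 1355 CPM in titled positive and 740.6 CPM in titled control cells (0.87, 0.67 to 1.07) and C4b 987.2 CPM in titled positive and 639.6 CPM in titled control cells (0.63), neither past 2-fold, though C3 passed it as a mean of per-cell levels (1.08). Saa3, an acute phase apolipoprotein, had 297.2 CPM in titled positive and 3.26 CPM in titled control cells, but stood at 1020 CPM in other positive barcodes. Il6st, the shared receptor of the interleukin 6 family, and Cxcl1, a chemokine, were lower, at 60.4 CPM in titled positive and 130.4 CPM in titled control cells and at 25.2 CPM in titled positive and 62.7 CPM in titled control cells.

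Immediate early and stress genes were also mostly higher where called. Of 27 tested 12 were called higher and 2 lower, the 2 being Hsp90aa1 and Dnajb1, with a median log2 ratio of 1.19. The summed list was not higher. Its median per cell was 72.7 UMIs per 10000 in titled positive and 81.2 in titled control cells, with and without mixed barcodes. Fos had 881.5 CPM in titled positive and 348.7 CPM in titled control cells (1.34), with 1395 CPM in other positive and 732.1 CPM in other control barcodes, and Ier2, Dusp1, Klf6 and Atf3 were likewise higher in other positive barcodes than in titled positive ependymal cells. Gadd45g, a growth arrest gene, had 418.1 CPM in titled positive and 96.1 CPM in titled control cells (2.12), with 111.2 CPM in other positive barcodes. Of 23 oxidative phosphorylation genes none was called (median -0.03), and of 22 glycolysis and hypoxia genes 3 were higher and 3 lower (median 0.17). The median share of mitochondrial UMIs was 3.48% in titled positive and 3.56% in titled control cells.

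Gpx3, a secreted selenoprotein peroxidase (chr11:54902453-54910377), came first when genes were ordered by the interval bound nearest to 0. It ranged from 0 to 262 UMIs per 10000 with a median of 4.13 in titled positive cells, and from 0 to 5.91 with a median of 0 in titled control cells. It was found in 29 of 36 titled positive and 24 of 180 titled control cells, but 72.1% of its titled positive UMIs lay in 4 cells. The sums were 3254 CPM in titled positive and 26.9 CPM in titled control cells (log2 ratio 6.90, 6.41 to 7.47; 6.23 without mixed barcodes), with 68.5 CPM in other positive and 5.47 CPM in other control barcodes. In the titled control library Gpx3 had 57.5 CPM in Ttr-high and 1.35 CPM in astrocyte-like barcodes. Of the 646 UMIs in titled positive cells 233 came from 1 cell, which was a mixed barcode. Without mixed barcodes 413 UMIs were left, in 28 cells, with 67.8% of them in 4 cells. At 1000 UMIs per cell Gpx3 was detected in 44.4% of titled positive and 3.33% of titled control ependymal cells, against 1.01% of titled positive and 0 of 3684 titled control oligodendrocyte-like barcodes.

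Further genes rose above both titled control ependyma and the other positive barcodes, chosen after their values were seen. Nnmt, which methylates nicotinamide, had 332.4 CPM in titled positive and 13.9 CPM in titled control cells (4.55, 3.80 to 5.45), with 0.633 CPM in other positive barcodes. Nnmt was detected at 1000 UMIs per cell in 13.9% of titled positive and 1.67% of titled control ependymal cells, and in 0.336% of titled positive oligodendrocyte-like barcodes. Sod3, extracellular superoxide dismutase, had 503.7 CPM in titled positive and 26.1 CPM in titled control cells (4.26), with 2.75 CPM in other positive barcodes. In the titled control library Sod3 was higher outside ependyma, at 51.0 CPM in all other, 120.5 CPM in astrocyte-like and 158.3 CPM in Ttr-high barcodes. Nbl1, a secreted inhibitor of bone morphogenetic proteins, had 659.8 CPM in titled positive and 37.5 CPM in titled control cells (4.13), with 4.196 CPM in other positive barcodes. In the titled control library Nbl1 had 51.7 CPM in astrocyte-like and 7.99 CPM in Ttr-high barcodes. Nbl1 was detected at 1000 UMIs per cell in 41.7% of titled positive and 5.56% of titled control ependymal cells, and in 0 of 298 titled positive oligodendrocyte-like barcodes. Wisp2, a secreted matricellular protein, had 30 UMIs in 14 of the 36 titled positive cells and 1 UMI in the 180 titled control cells, with 10.9 CPM in other positive barcodes. Cnn1, a calponin of contractile cells, had 22 UMIs in titled positive and 3 UMIs in titled control cells, with 72.7% of the 22 in 4 cells, none of them mixed barcodes. The mural markers Acta2 and Tagln had 25 UMIs each in titled positive cells, in 7 and 8 of the 36, while Myh11, Pdgfrb and Kcnj8 of that list were at 0 there.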

How the data were processed

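The values are whole-number UMI counts per gene and barcode in a pair of matrices as deposited, 1 per library, and per the submitters' processing notes they were made with Cell Ranger on GRCm38. Further filters are not given in sources used here. The barcodes were used as deposited. The members, gene lists and limits were chosen with earlier results of these data known. UMI counts were summed over the ependymal barcodes of each library and scaled to counts per 1000000 UMIs (CPM), with exact Poisson 95% intervals. Log2 ratios used a pseudocount of 0.5 and an exact conditional binomial interval. A gene was called at 2-fold or more with an interval that excluded 0, among genes with at least 10 UMIs over both sums. No model was fitted and no p-value computed, since each group is 1 library, and intervals and the floor of 3 counts behind a 0 cover counting error only.

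Astrocyte-like barcodes had at least 100 astrocyte marker UMIs per 10000, at least 6 markers and Ttr under 5% of UMIs. Oligodendrocyte-like ones had at least 300 marker UMIs per 10000 and at least 6 markers. Both sets left out ependymal members and barcodes over the mixed limits for other cell types. Ttr-high barcodes were not filtered by those limits. No doublet caller was run. The ependymal sums kept barcodes with many markers of another type, and these were left out as an alternative. Genes were named as the rule genes, the 20 highest over all other control barcodes with at least 100 UMIs, the 10 highest and 10 lowest between libraries by the interval bound nearest to 0 with at least 20 UMIs, and 2 to 4 examples per list by UMIs or ratio; other named genes were chosen after their values were seen. Some genes that the rule names are not reported here. Ambiguous copies and overlapping genes, such as Rarres2 with Lrrc61 and Nnat with Blcap, keep the deposited counts. Gene coordinates follow GRCm38, and promoters come from RefSeq. The calculation was tested on simulated Poisson counts without spread between cells, so that test does not cover genes whose UMIs lie in few cells. Python 3.11.15, numpy 2.4.6, scipy 1.17.1, pandas 2.3.3 and matplotlib 3.10.9 were used.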

Additional observations from a re-analysis of the deposited data

How the results depend on the processing

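No paired analysis was possible because each group is 1 library with no replicate, so no library could be left out. Between the titled positive and titled control ependymal cells, 599 genes were called higher, against 186 at 1000 UMIs per cell and 262 with a minimum of 50 UMIs, and 695 lower, against 164 at 1000 UMIs per cell. The median log2 ratio of the MHC class II list was 4.59 and became 10.28 with 20% free RNA subtracted. Free RNA was taken as the profile of all other barcodes of the library, and counts stopped at 0. Cd74 had 39.1 CPM in titled control ependymal cells and 809.1 CPM in other control barcodes, so 20% of that profile took it to 0. The pseudocount then set its ratio, and the rise of the median is no added support for the list. For titled control ependymal over astrocyte-like barcodes, 3132 genes were higher, against 1708 at 1000 UMIs per cell and 2003 with a minimum of 50 UMIs, and 2276 lower, against 1235 at 1000 UMIs per cell. There the interferon median was 4.2, 5.24 with 10% and 5.96 with 20% free RNA subtracted, and the MHC class I median was 3.03 and 4.32 with 20%. Fewer UMIs or fewer genes tested lower the counts by construction, and subtraction to 0 leaves a ratio to the pseudocount. The cause of the other shifts was not tested.

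Among titled control cells the share of Isg15 UMIs in the 18 cells with the most was 39.3% and 34.2% at 2000 UMIs per cell, and that of Tmem212 was 26.0%, 24.1% at 1000 and 22.1% at 2000. The share of cells with a UMI, in full and at 1000 and 2000 UMIs per cell, was 21.7%, 5.56% and 10% for Otx2, 12.8%, 5.56% and 3.33% for Zic1, 38.9%, 7.22% and 17.2% for Msx1, and 47.8%, 21.7% and 27.2% for Gfap. No result reversed under the alternatives run. The alternatives that left out shared barcodes or Lcn2-rich control cells were chosen after seeing the data. The 36 titled positive cells limit low genes, so a gene that was not called there is not shown to be alike in both libraries.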
